A study of Mus musculus with 6 samples.

Results

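The 10 genes described here encode enzymes that build triglyceride in the hepatocyte and enzymes that take it apart again. They were chosen by symbol, as Gpam, Agpat2, Lpin1, Lpin2, Dgat1, Dgat2 and Mogat1 on the side of assembly and Pnpla2, Pnpla3 and Mgll on the side of lipolysis, out of 56674 rows of the count table of mouse liver. Each symbol had its own row, and 9 of the 10 were abundant enough to be among the 17871 genes tested. The exception was Pnpla3. The liver RNA came from male C57BL/6 mice, an inbred laboratory strain, reared for 71 weeks. The PB-MP group (3 libraries) ate chow containing polypropylene black microplastic, and the control group (3 libraries) ate normal chow. The sources used here give no dose of plastic. A treatment field common to all samples names the plastic-containing chow, so the groups rest on the sample titles and the diet label of each sample. Whether each library stands for its own animal is not stated, and the p-values below therefore measure only the spread between these libraries, which may be technical.

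Triglyceride is made by adding fatty acids, carried on coenzyme A, to glycerol 3-phosphate one after the other, with removal of the phosphate before the last fatty acid goes on. Monoacylglycerol can enter the same route by its own acyltransferase. Stored triglyceride is cut back by a lipase that removes the first fatty acid, a lipase for diacylglycerol and a lipase that frees the last fatty acid from monoacylglycerol. In liver this cycle sets how much fat sits in droplets, how much leaves in lipoproteins and how much fatty acid is released for oxidation.

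The libraries held 70603124 to 90483598 reads in PB-MP and 68357478 to 112566641 in control, so that 3 reads, the limit that a count of 0 allows, came to 0.0308 to 0.0380 CPM in PB-MP and 0.0285 to 0.0495 CPM in control, for counting error only. CPM is the read count over the library size, scaled by TMM factors (trimmed mean of M-values, which set the bulk of genes level between libraries). Mitochondrially encoded mRNAs took 8.73% to 10.1% of the reads in PB-MP and 14.2% to 15.1% in control, and the TMM factors were 1.04 to 1.12 in PB-MP and 0.887 to 0.961 in control. The 7 hepatocyte markers summed to 63262 to 73531 CPM in PB-MP and 59287 to 71461 CPM in control. Of 8 adipocyte markers, Lep had no read in any library and Adipoq and Plin1 had at most 9, while the list summed to 2025 to 3248 CPM in PB-MP and 2488 to 3611 CPM in control, nearly all of it Car3, which liver also expresses. Of the 5 tested genes of that list, Cfd (log2 fold change -3.11), Retn (-3.02) and Car3 (-0.24) had estimates below 0 and Fabp4 (0.26) and Adrb3 (0.69) above 0. The libraries of the groups were apart for Cfd and Retn, as for 19.8% of all tested genes, 8.49% with PB-MP lower. Retn had only 0, 4 and 4 reads in PB-MP, against 18, 11 and 35 in control. DESeq2 called Cfd (adjusted p = 3.18e-05) and not Retn (adjusted p = 0.0901), where it called 2.44% of the genes it adjusted. The 6 Kupffer cell markers summed to 65.9 to 157 CPM in PB-MP and 50.8 to 60.6 CPM in control, the 4 neutrophil markers to 2.74 to 5.07 CPM in PB-MP and 1.12 to 1.56 CPM in control, and the 6 stellate cell markers to 154 to 268 CPM in PB-MP and 272 to 286 CPM in control. Sums of endothelial markers (57.2 to 96.9 CPM in PB-MP and 74.6 to 82.9 CPM in control) and of cholangiocyte markers (18.1 to 28.4 CPM in PB-MP and 11.9 to 26.6 CPM in control) overlapped. Within the stellate list, Dcn made up most of the sum. Its groups overlapped, at 104 to 187 CPM in PB-MP against 176 to 202 CPM in control. Estimates were below 0 for 5 of the 6 stellate genes and above 0 for Lrat (log2 fold change 0.32). Only for Col1a1 (-1.04) and Des (-0.66) were the groups apart. Muscle and pancreatic acinar markers stayed under 1 CPM in sum in every library. The part of these differences in the results below was not tested, and in bulk tissue fewer cells of a type and less RNA per cell cannot be told apart.

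No triglyceride enzyme passed the test between PB-MP and control. The edgeR quasi-likelihood test, with Benjamini-Hochberg adjustment over all 17871 genes and a threshold of 0.05, called 0 of the 9, and it called 0.00% of all tested genes. DESeq2 and limma-voom also called 0 of the 9, and DESeq2 called 2.44% of the genes it adjusted. All 9 estimates lay below 0, that is lower in PB-MP, against 49.4% of all tested genes, and their median log2 fold change was -0.23 against 0.01 over all genes. At an unadjusted p below 0.05 there were 2 of the 9, Mgll and Mogat1, both lower in PB-MP, where 12.1% of all genes were past that limit, 4.74% in the lower and 7.35% in the higher direction. The libraries of the groups overlapped for all 9, where 19.8% of all genes had groups that did not overlap, 8.49% with PB-MP lower. For 4 of the 9 (Agpat2, Dgat1, Dgat2 and Pnpla2) the 95% interval stayed between a log2 fold change of -1 and 1, as it did for 45.7% of all genes. For the other 5 a log2 fold change of -1 was inside the interval. Scaled by library size alone, 5 of the 9 estimates were below 0 and their median was -0.02, with all genes shifted up to a median of 0.23. At that scaling 0 of the 9 were at an unadjusted edgeR p below 0.05, against 15.8% of all genes. With at least 1 CPM in 3 libraries it was 1 of the 9 (11.2% of all genes). In limma-voom with quality weights it was 3 of the 9 (23.4%). The other settings that kept all libraries gave 2 of the 9.

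**Figure D1:**
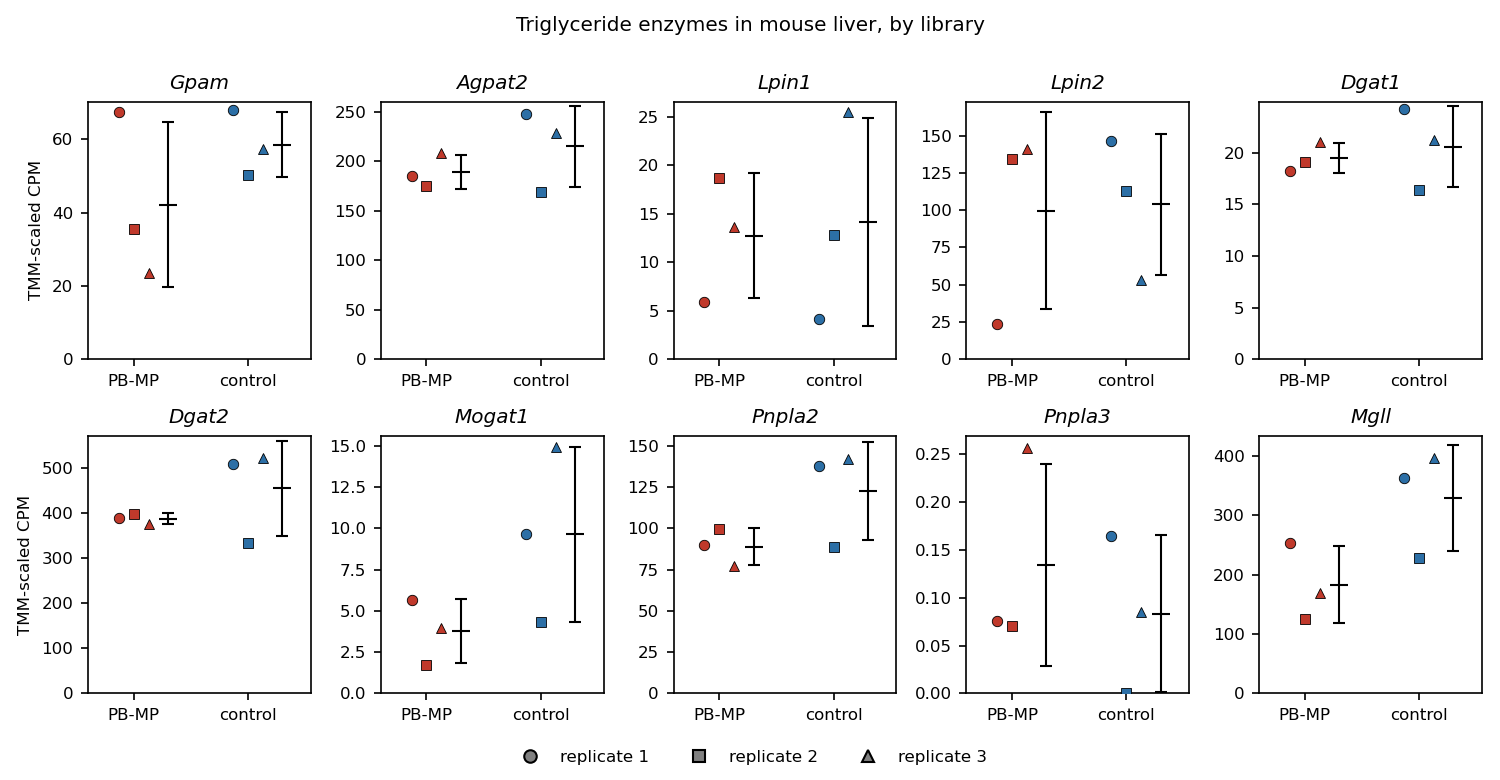
TMM-scaled CPM of the 10 triglyceride enzymes in each of 3 PB-MP libraries (left, red) and 3 control libraries (right, blue), with marker shape for the replicate and the black bar for mean ± SD. The groups overlap in every panel; for Mgll, Mogat1 and Pnpla2 control replicates 1 and 3 lie above all PB-MP libraries and control replicate 2 lies among them.

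The first step of assembly, acylation of glycerol 3-phosphate, is carried out in mitochondria by the product of Gpam. Gpam had 67.3, 35.6 and 23.6 CPM in the PB-MP libraries, against 67.8, 50.1 and 57.4 CPM in the control libraries, in the order of replicates 1, 2 and 3 used throughout. PB-MP replicate 1 was level with the highest control, and the other PB-MP libraries were below every control. The log2 fold change was -0.47 ± 0.37 (SE; 95% interval -1.34 to 0.40; edgeR adjusted p = 0.644), and it was -0.98 without PB-MP replicate 1, -0.19 without PB-MP replicate 3 and -0.25 with library size only. Agpat2 encodes an acyltransferase of the endoplasmic reticulum that adds the second fatty acid and whose loss in humans causes lipodystrophy. It stood at 185, 175 and 208 CPM in PB-MP, against 247, 169 and 228 CPM in control. The PB-MP libraries lay inside the control range, at a log2 fold change of -0.18 ± 0.19 (95% interval -0.63 to 0.26; adjusted p = 0.733) that was -0.36 without control replicate 2, -0.08 without control replicate 1 and 0.03 with library size only.

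The lipins remove the phosphate from phosphatidate, and lipin 1 also acts in the nucleus as a transcriptional coactivator. Their 2 transcripts varied more between libraries of the same diet than between diets. Lpin1 was at 5.88, 18.7 and 13.6 CPM in PB-MP, against 4.17, 12.8 and 25.5 CPM in control. Its highest and its lowest library were both controls, 6.11 times apart, and the log2 fold change was -0.15 ± 0.66 (edgeR adjusted p = 0.944). Lpin2 was at 23.6, 135 and 141 CPM in PB-MP, against 146, 113 and 53.0 CPM in control. PB-MP replicate 1 was the lowest library and 5.96 times below PB-MP replicate 3, and control replicate 3 was the next lowest. The log2 fold change of Lpin2 was -0.06 ± 0.65 (adjusted p = 0.979). For neither lipin did the data fix a direction. Lpin1 was at 0.19 without PB-MP replicate 1, 0.60 without control replicate 3 and 0.06 with library size only, and Lpin2 was at 0.41 without PB-MP replicate 1, 0.28 without control replicate 1 and 0.14 with library size only. The SD within groups, on the log2 CPM scale, was 1.11 for Lpin1 and 1.17 for Lpin2 against a median of 0.37 over all tested genes, above 91.8% and 92.6% of them.

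The last fatty acid is added by either of 2 unrelated enzymes, DGAT1 and DGAT2, of which DGAT2 is tied to newly made fatty acids in hepatocytes. Dgat2 was at 390.2, 399 and 375 CPM in PB-MP, against 511, 334 and 522 CPM in control. The PB-MP libraries differed from each other by 1.06-fold at most and lay between control replicate 2 and the other controls. The log2 fold change was -0.23 ± 0.21 (95% interval -0.72 to 0.26; edgeR adjusted p = 0.692), and it was -0.44 without control replicate 2 and -0.02 with library size only. Dgat1 was at 18.2, 19.1 and 21.1 CPM in PB-MP, against 24.2, 16.4 and 21.2 CPM in control. Its PB-MP libraries likewise fell inside the control range, at a log2 fold change of -0.08 ± 0.20 (95% interval -0.55 to 0.38; adjusted p = 0.896), which was -0.25 without control replicate 2, 0.04 without control replicate 1 and 0.13 with library size only.

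Mogat1 encodes an acyltransferase that makes diacylglycerol from monoacylglycerol, a route that is minor in lean mouse liver and is known to increase in fatty liver. Its estimate was the farthest from 0 among the 9, with 5.65, 1.74 and 3.97 CPM in PB-MP, against 9.66, 4.34 and 14.9 CPM in control. Control replicate 2 lay below PB-MP replicate 1, and the other controls were above all PB-MP libraries. The means ± SD were 3.79 ± 1.96 CPM in PB-MP and 9.65 ± 5.30 CPM in control (3 libraries each), and the log2 fold change was -1.35 ± 0.55 (SE; 95% interval -2.66 to -0.04; edgeR unadjusted p = 0.0443, adjusted p = 0.404). The estimate ran from -1.76 without PB-MP replicate 1 to -0.91 without control replicate 3.

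On the side of lipolysis, Pnpla2 encodes adipose triglyceride lipase (ATGL), which takes the first fatty acid from stored triglyceride in liver as well as in fat. It was at 89.9, 99.4 and 77.1 CPM in PB-MP, against 137, 88.7 and 142 CPM in control. Control replicate 2 lay among the PB-MP libraries, and the other controls stood above all of them. The means ± SD were 88.8 ± 11.2 CPM in PB-MP and 123 ± 29.6 CPM in control, and the log2 fold change was -0.47 ± 0.22 (95% interval -0.98 to 0.05; edgeR adjusted p = 0.447). It was -0.68 without control replicate 2, -0.36 without control replicate 3 and -0.26 with library size only (adjusted p of 0.128 to 0.783 over all its alternatives).

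Mgll encodes monoacylglycerol lipase, which frees the last fatty acid and glycerol and also breaks down the endocannabinoid 2-arachidonoylglycerol. Mgll was at 254, 126 and 169 CPM in PB-MP, against 363, 228 and 397 CPM in control. PB-MP replicate 1 exceeded control replicate 2, which is the only overlap between the groups. The means ± SD were 183 ± 64.8 CPM in PB-MP and 329 ± 89.8 CPM in control, and the log2 fold change was -0.85 ± 0.32 (95% interval -1.59 to -0.10; edgeR unadjusted p = 0.0310, adjusted p = 0.367). It kept its sign under all alternatives tried, between -1.16 without PB-MP replicate 1 and -0.63 with library size only. Pnpla3 encodes adiponutrin, a relative of ATGL for which a human variant is a known risk factor of fatty liver. It had 6, 6 and 25 reads in PB-MP, against 12, 0 and 9 reads in control, or 0.0761, 0.0709 and 0.256 CPM in PB-MP and 0.165, 0 and 0.0856 CPM in control. At 0 reads control replicate 2 allows up to 0.0495 CPM. PB-MP replicate 3 was the highest library, and the other PB-MP libraries lay inside the control range. With no filter on low counts its log2 fold change was 0.67 ± 1.09 (edgeR adjusted p = 0.838; the range over the settings that gave it a value was 0.805 to 0.955).

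**Figure D2:**
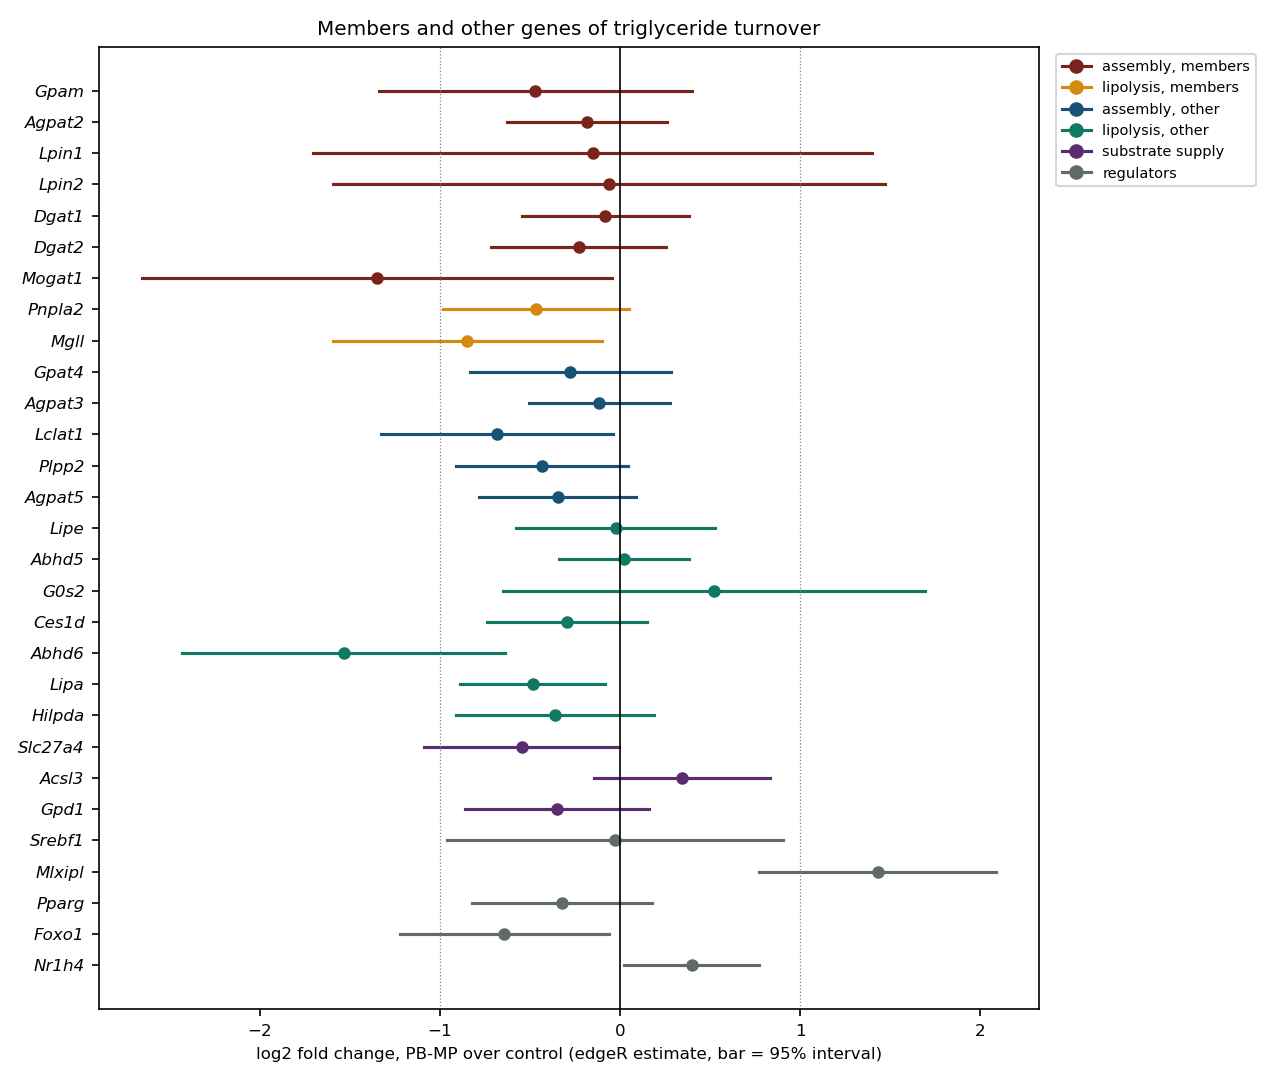
Log2 fold change of PB-MP over control for the 9 tested triglyceride enzymes and 20 further genes of triglyceride turnover, coloured by role; points are edgeR estimates, bars 95% intervals and dotted lines -1 and 1. All 9 enzymes have estimates below 0 with TMM scaling, and the bars of Mgll and Mogat1 alone among them stop short of 0; scaled by library size alone, Agpat2, Lpin1, Lpin2 and Dgat1 are above 0.

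Control replicate 2 was the lowest control for 7 of the 9, the lipins excepted, a count not made over all tested genes. Its CPM was 0.353 of the mean of the other controls for Mogat1, 0.598 for Mgll, 0.635 for Pnpla2, 0.647 for Dgat2, 0.711 for Agpat2, 0.722 for Dgat1 and 0.801 for Gpam. Without it Pnpla3 was tested too, at a log2 fold change of 0.12, and the median over all 10 was -0.40. In that fit 4 of the 9 were past an unadjusted p of 0.05, namely Dgat2, Mogat1, Pnpla2 and Mgll. The share of all tested genes past that limit was also higher, at 17.8%. That count was 3 without PB-MP replicate 1 (8.10% of all genes) and 0 without PB-MP replicate 2, PB-MP replicate 3, control replicate 1 or control replicate 3 (7.92% to 12.3% of all genes). None of the 9 passed after adjustment in any of these fits. The summed level of all 10 genes was 1040, 1009 and 1033 CPM in PB-MP, against 1511, 1016 and 1461 CPM in control. The PB-MP libraries were thus near each other and near control replicate 2, with control replicates 1 and 3 above. The 18S ribosomal RNA row took 3.61%, 9.42% and 0.707% of the reads in PB-MP and 2.92%, 11.2% and 1.15% in control, with control replicate 2 the highest, and its part in these levels was not tested.

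In the reference annotation (GENCODE M21, on the assembly GRCm38), exons of 4 of the 10 genes overlap those of another gene. The library kit keeps strand, but the sources used here name neither the counting program nor its strand setting, so reads could have been shared. Mogat1 overlaps BC035947 on the opposite strand, which had at most 0.254 CPM. Agpat2 overlaps Egfl7, an endothelial gene on the opposite strand, at 10.2, 10.9 and 21.9 CPM in PB-MP and 8.26, 10.5 and 8.45 CPM in control. Mgll overlaps the antisense transcript Gm26588, at 6.45, 4.20 and 6.44 CPM in PB-MP and 2.63, 2.90 and 2.72 CPM in control. These antisense counts were small beside those of Mgll and stood higher in every PB-MP library than in any control, a feature named after its values were seen. Groups that did not overlap, in either direction, were found for 19.8% of all tested genes. The estimate of Mgll lay in the other direction, but its groups overlapped, and a relation between the 2 transcripts was not tested. Pnpla3 shares exon sequence with Gm49513 on the same strand, which had 1 read in all.

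Levels of different genes can be compared once divided by transcript length. On the scale of CPM per kilobase of the longest coding transcript, the order of mean levels was Dgat2, Agpat2, Mgll, Pnpla2, Lpin2, Dgat1, Gpam, Mogat1, Lpin1 and Pnpla3, and it was the same in PB-MP and in control. Dgat2 averaged 172 ± 5.31 CPM per kilobase in PB-MP and 201 ± 46.6 in control (SD, 3 libraries each), and Agpat2 127 ± 11.5 in PB-MP and 144 ± 27.4 in control. Dgat2 was above Agpat2 in 6 of 6 libraries, with ranges that did not overlap in PB-MP and did in control. Mgll followed at 45.9 ± 16.2 CPM per kilobase in PB-MP and 82.5 ± 22.5 in control, below every library of Agpat2. Pnpla2 was at 33.8 ± 4.27 in PB-MP and 46.8 ± 11.3 in control, with Mgll above it in 5 of 6 libraries and ranges that overlapped in PB-MP and not in control. Lpin2 came next at 17.7 ± 11.7 CPM per kilobase in PB-MP and 18.4 ± 8.37 in control, below every library of Pnpla2. Dgat1 was at 10.3 ± 0.768 in PB-MP and 10.9 ± 2.09 in control, inside the range of Lpin2 in PB-MP and overlapping it in control, with Lpin2 the higher in 4 of 6 libraries. Gpam was at 6.83 ± 3.66 in PB-MP and 9.47 ± 1.44 in control, and Mogat1 at 3.08 ± 1.60 in PB-MP and 7.86 ± 4.32 in control. Lpin1 was at 2.28 ± 1.16 in PB-MP and 2.54 ± 1.92 in control. The library ranges of Dgat1, Gpam and Mogat1 each overlapped that of the next in both groups, and each was above the next in 5 of 6 libraries. Pnpla3 stood apart at the bottom, at 0.102 ± 0.0805 CPM per kilobase in PB-MP and 0.0635 ± 0.0627 in control. With the median length of a gene's coding transcripts in place of the longest, Gpam came before Dgat1, and the other places were as given.

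**Figure D3:**
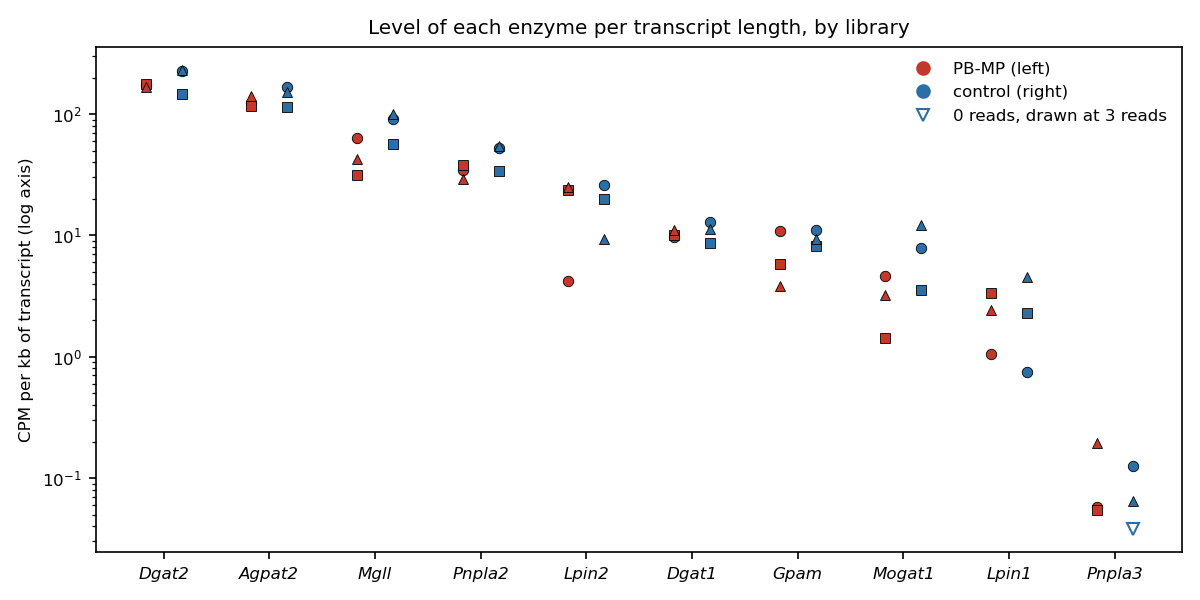
CPM per kilobase of the longest coding transcript (log axis) for the 10 enzymes in order of their mean, PB-MP libraries in red on the left and control libraries in blue on the right of each gene, with marker shape for the replicate. Dgat2 and Agpat2 lead, Pnpla3 is lowest, and the open triangle marks the control library with 0 Pnpla3 reads, drawn at its limit of 3 reads.

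The 9 tested enzymes differed in their profiles across the libraries. Likeness was measured as the root mean square difference of 2 genes' log2 CPM, each centred on its own mean over the 6 libraries, and is a description of libraries that share depth and scaling. It is not divided by a gene's spread. Genes that vary little therefore lie near each other, and genes that vary much lie far from the others, whatever the shape. The SD within groups was 0.22 for Agpat2 and Dgat1 and 0.26 for Dgat2, against 1.11 for Lpin1 and 1.17 for Lpin2. The nearest pair was Agpat2 and Dgat1, at 0.0723, followed by Agpat2 and Dgat2 at 0.119, Dgat1 and Dgat2 at 0.136 and Dgat2 and Pnpla2 at 0.145. These 4 genes, which carry out acylation and the first cut of lipolysis, were highest in control replicates 1 and 3. For Dgat1 control replicate 3 (0.092) was barely above PB-MP replicate 3 (0.084). Control replicate 2 was the lowest library of Agpat2, Dgat1 and Dgat2, and PB-MP replicate 3 that of Pnpla2. Mgll was 0.394 from Gpam, its nearest, 0.402 from Pnpla2 and 0.437 from Mogat1, and both Mgll and Mogat1 were lowest in PB-MP replicate 2. The lipins were far from each other, at 1.25, and no other enzyme was nearer than 0.954 to Lpin1 or 0.932 to Lpin2.

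**Figure D4:**
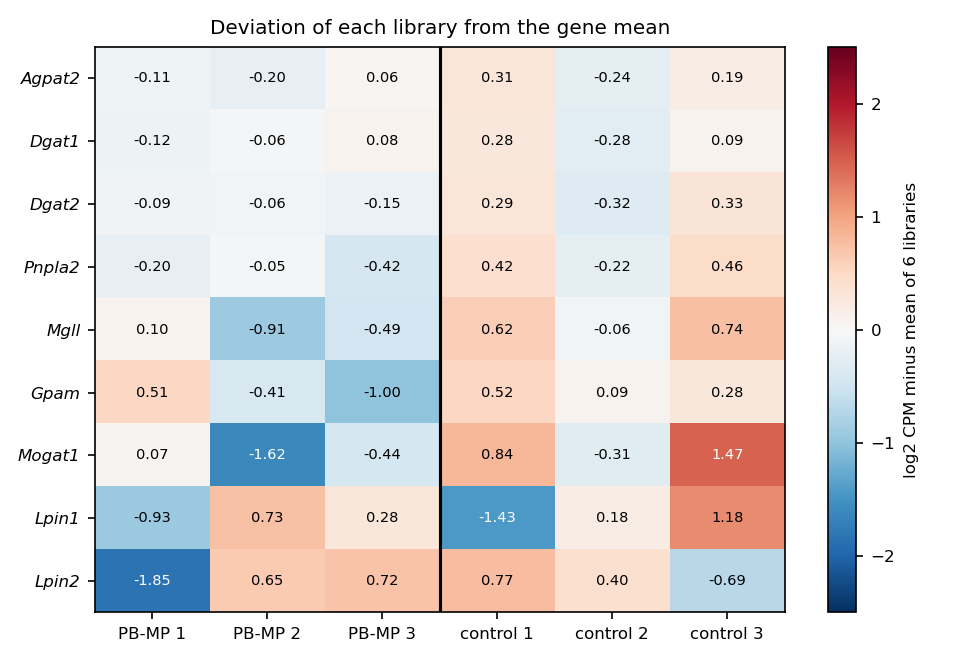
Log2 CPM of each tested enzyme in each library minus the gene's mean over 6 libraries, with PB-MP libraries left of the black line and control libraries right of it. Agpat2, Dgat1, Dgat2 and Pnpla2 have narrow profiles with control replicate 2 the lowest control, while Lpin1 and Lpin2 have wide and different profiles.

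Ratios of reads within a library, formed after adding 0.5 reads to each count for the log scale, need no scaling between libraries and compare steps that serve the same reaction or follow each other. The ratio of Dgat2 to Dgat1 reads was 21.4, 20.9 and 17.8 in PB-MP, against 21.1, 20.4 and 24.6 in control. It had the narrowest range of 6 ratios over the libraries, with a difference in mean log2 ratio, PB-MP minus control, of -0.14 (exact permutation test over 20 splits of 3 against 3 libraries, two-sided, p = 0.5; the smallest p that the design allows is 0.1). The ratio of Lpin1 to Lpin2 was the opposite case, at 0.249, 0.139 and 0.0967 in PB-MP, against 0.0285, 0.114 and 0.481 in control, with a difference of 0.37 (exact permutation p = 0.9) that turned to -0.64 without control replicate 1. The ratio of Mgll to Pnpla2 was 2.82, 1.27 and 2.20 in PB-MP, against 2.64, 2.57 and 2.80 in control. That of Gpam to Gpat4, the acyltransferase for glycerol 3-phosphate in the endoplasmic reticulum, was 0.320, 0.149 and 0.175 in PB-MP, against 0.255, 0.235 and 0.251 in control. Both were close between controls, and in PB-MP 1 library stood off from the others, replicate 2 for Mgll to Pnpla2 and replicate 1 for Gpam to Gpat4. The SD of the log2 ratio was 0.59 in PB-MP and 0.06 in control for Mgll to Pnpla2, and 0.58 in PB-MP and 0.06 in control for Gpam to Gpat4, while the means did not separate (differences of -0.42 and -0.28, exact permutation p = 0.4 for each). Without PB-MP replicate 2 the SD in PB-MP of Mgll to Pnpla2 was 0.26, and without PB-MP replicate 1 that of Gpam to Gpat4 was 0.17. The spread itself was not tested.

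The ratio of Pnpla2 to G0s2, the gene of a small protein that inhibits ATGL, was 0.454, 1.17 and 0.208 in PB-MP, against 0.951, 0.449 and 1.27 in control. It ranged widely in both groups, at a difference in mean log2 ratio of -0.76 (exact permutation p = 0.5). The ratio of Pnpla3 to Pnpla2 rests on the few Pnpla3 reads given above, and its difference of 1.67 had an exact permutation p of 0.4. These 6 ratios are one family with no p below 0.4, so adjustment would leave all of them above that.

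**Figure D5:**
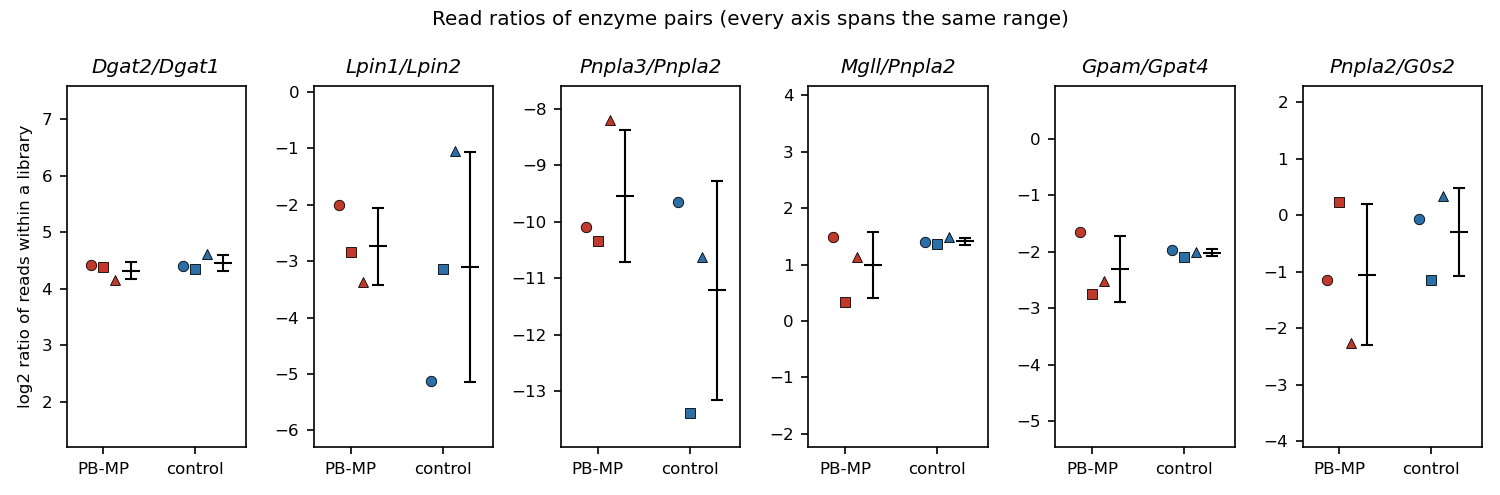
Log2 ratio of reads of 6 gene pairs within each library, PB-MP in red on the left and control in blue on the right, with marker shape for the replicate and black bars for mean ± SD; every axis spans the same range. Dgat2/Dgat1 hardly varies, Mgll/Pnpla2 and Gpam/Gpat4 are tight in control and spread in PB-MP, and Lpin1/Lpin2 is spread in control.

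For Mgll and Mogat1, the enzymes with the smallest p, the genes of most similar profile were sought, with genes averaging under 10 CPM left out. Nearest to Mgll were Ces2c, a carboxylesterase, at a root mean square difference of 0.138, Copz2, a coat protein subunit, at 0.178 and Acaa1b, a peroxisomal thiolase, at 0.179. Ces2c was at 38.5, 19.0 and 27.0 CPM in PB-MP, against 44.8, 33.3 and 66.6 CPM in control. Nearest to Mogat1 were Ddx39b, an RNA helicase, at 0.340, Gstm3, a glutathione transferase, at 0.359 and Scd1, the stearoyl-CoA desaturase, at 0.370. Scd1 was at 5770, 1589 and 2248 CPM in PB-MP, against 5992, 3509 and 7509 CPM in control, and like Mogat1 it was lowest in PB-MP replicate 2 and highest in control replicate 3.

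RefSeq promoter windows on GRCm38.p6 were on hand for 8 of the 10 genes, all but Dgat1 and Dgat2. The 250 bases before the start site are printed for 4 of them. Agpat2 and Pnpla2 are shown because they belong to the 4 genes of the nearest pairs above, which vary little between libraries. They were 0.238 from each other, and their lowest libraries differed. Mgll and Mogat1 are shown because they had the smallest p. Where a gene had several entries, the one nearest to the start of its longest coding transcript was taken. The sequences run 5′ to 3′ on the gene's strand, and capitals mark the motifs found.
Agpat2, chr2:26604418-26604667, minus strand: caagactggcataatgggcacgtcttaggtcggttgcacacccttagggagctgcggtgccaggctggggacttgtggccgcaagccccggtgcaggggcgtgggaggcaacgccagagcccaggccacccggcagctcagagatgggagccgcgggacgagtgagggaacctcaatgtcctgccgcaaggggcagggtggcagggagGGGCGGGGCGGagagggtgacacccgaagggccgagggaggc
Pnpla2, chr7:141454938-141455187, plus strand: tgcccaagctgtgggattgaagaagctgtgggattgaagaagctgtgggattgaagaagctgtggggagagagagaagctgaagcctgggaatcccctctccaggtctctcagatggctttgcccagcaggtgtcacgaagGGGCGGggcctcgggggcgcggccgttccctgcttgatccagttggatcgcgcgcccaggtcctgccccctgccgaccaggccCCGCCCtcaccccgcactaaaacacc
Mgll, chr6:88724454-88724703, plus strand: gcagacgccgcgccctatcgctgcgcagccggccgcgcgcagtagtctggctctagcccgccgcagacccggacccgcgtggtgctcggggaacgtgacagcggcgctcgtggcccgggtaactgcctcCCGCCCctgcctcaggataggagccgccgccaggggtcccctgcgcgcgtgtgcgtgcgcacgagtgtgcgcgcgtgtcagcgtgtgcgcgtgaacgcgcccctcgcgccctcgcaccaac
Mogat1, chr1:78510810-78511059, plus strand: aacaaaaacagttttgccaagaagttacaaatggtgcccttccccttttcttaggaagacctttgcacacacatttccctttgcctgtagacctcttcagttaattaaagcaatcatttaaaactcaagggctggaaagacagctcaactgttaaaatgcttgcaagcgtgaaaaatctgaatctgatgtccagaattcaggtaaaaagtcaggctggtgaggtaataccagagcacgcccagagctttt
There were 5 motifs, each searched on both strands. The E-box was searched as CACGTG, which 6.02% of 32851 mouse windows of this length hold. The CCAAT motif is in 33.8% of the windows and the GC box, searched as GGGCGG, in 32.7%. The TATA motif, searched as TATAAA, is in 12.4%, and the nuclear receptor half-site, searched as AGGTCA, in 14.0%. Agpat2 and Pnpla2 each hold 2 GC boxes, those of Agpat2 overlapping each other and those of Pnpla2 on opposite strands, and the printed window of Mgll holds 1. The other Mgll entry, with a start site 292 bases away and not printed, holds 1 E-box and no GC box. The window of Mogat1 holds none of the 5 motifs, and its GC content was 41.2% against 74.8% for Mgll, 69.2% for Agpat2 and 63.2% for Pnpla2. A match is a description of the letters only.

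The other genes of triglyceride turnover, taken in 4 lists, held none that passed the edgeR test. Over all tested genes, 49.4% of estimates were below 0, and DESeq2 called 2.44% of the genes it adjusted. At an unadjusted edgeR p below 0.05, 4.74% of all tested genes were lower and 7.35% higher in PB-MP. The counts of each list are to be read beside these shares. Among 14 other genes of assembly, 10 estimates were below 0 and 4 above, the median log2 fold change was -0.24, and 1 gene was lower in PB-MP at an unadjusted p below 0.05, with 0 called by DESeq2. Gpat4 was at 211, 240 and 135 CPM in PB-MP, against 266, 213 and 229 CPM in control (log2 fold change -0.28 ± 0.24, edgeR adjusted p = 0.681). Agpat3, a phosphatidate-forming acyltransferase, had a log2 fold change of -0.12 ± 0.17, which was 0.10 with library size only. The smallest p values in this group belonged to Lclat1, an acyltransferase that remodels cardiolipin, Plpp2, a lipid phosphate phosphatase, and Agpat5, a further acyltransferase, at log2 fold changes of -0.68 ± 0.27, -0.43 ± 0.20 and -0.35 ± 0.19 (adjusted p of 0.389, 0.446 and 0.496). These 3 genes were the only ones of the 14 with every PB-MP library below every control, which was so for 8.49% of all tested genes.

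Among 13 other genes of lipolysis, 8 estimates were below 0 and 5 above, and the median was -0.08. At an unadjusted p below 0.05, 2 genes were lower in PB-MP (4.74% of all genes), and 1 was called by DESeq2 (2.44% of all). Abhd6, which encodes another monoacylglycerol hydrolase, had the lowest p of the list. It stood at 10.4, 8.40 and 8.49 CPM in PB-MP, against 34.2, 12.5 and 32.6 CPM in control, so that every PB-MP library was below every control. The log2 fold change was -1.54 ± 0.38 (SE; 95% interval -2.43 to -0.64; edgeR adjusted p = 0.241). DESeq2 called it (adjusted p = 0.00772), and over all its alternatives the adjusted p ran from 0.00772 to 0.538. Control replicate 2 was again the lowest control. Lipa, the lysosomal acid lipase, was at 234, 197 and 205 CPM in PB-MP, against 342, 255 and 294 CPM in control, with no overlap (log2 fold change -0.49 ± 0.17, adjusted p = 0.345). Hilpda, an inhibitor of ATGL, was at -0.36 ± 0.23, also with no overlap. In this list 3 of the 13 had every PB-MP library below every control, as had 8.49% of all tested genes. The hydrolase genes Lipe and Ces1d were at -0.03 ± 0.24 and -0.29 ± 0.19, Abhd5, the activator of ATGL, at 0.02 ± 0.15, and G0s2 at 0.52 ± 0.50, with 198, 84.7 and 370.0 CPM in PB-MP and 144, 198 and 112 CPM in control. The estimates for Lipe and Abhd5 changed sign under some settings, as did that of G0s2 without PB-MP replicate 3 (-0.10).

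Among 12 genes that supply fatty acids and glycerol 3-phosphate, 8 estimates were below 0 and 4 above, and the median was -0.15. At an unadjusted p below 0.05, 1 gene was lower in PB-MP (4.74% of all genes), and 0 were called by DESeq2. Slc27a4, a fatty acid transport protein, was at -0.55 ± 0.23, Acsl3, an acyl-CoA synthetase of lipid droplets, at 0.35 ± 0.21, and Gpd1, which makes glycerol 3-phosphate, at -0.35 ± 0.22 (edgeR adjusted p of 0.411, 0.542 and 0.558). Among 13 regulators, 6 estimates were below 0 and 7 above, and the median was 0.18. At an unadjusted p below 0.05 there were 1 lower and 2 higher in PB-MP (4.74% and 7.35% of all genes), with 1 called by DESeq2. Of the transcription factors of lipid synthesis, Srebf1 was at -0.03 ± 0.40, with a sign that turned under some settings, and Pparg, which is known to drive Mogat1 in fatty mouse liver, at -0.32 ± 0.21, with 13.6, 11.0 and 12.3 CPM in PB-MP against 15.8, 12.2 and 18.2 CPM in control. Mlxipl encodes the carbohydrate-responsive factor ChREBP and was at 159, 94.0 and 201 CPM in PB-MP, against 60.6, 57.2 and 50.5 CPM in control. Its log2 fold change was 1.43 ± 0.28 (edgeR adjusted p = 0.207, 0.00125 in DESeq2, and 0.00125 to 0.519 over all alternatives), with every PB-MP library above every control. The other regulators of small p were Foxo1, a factor restrained by insulin that is known to raise Pnpla2, at -0.64 ± 0.25, and Nr1h4, the bile acid receptor, at 0.40 ± 0.16 (adjusted p of 0.376 and 0.389). Their groups did not overlap either. That was so for 3 of the 13 regulators and for 19.8% of all tested genes.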

How the data were processed

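Poly(A)-selected liver RNA of 6 libraries was sequenced after preparation with a directional kit, per the labels' protocols. Raw counts by gene symbol were deposited as 1 table of all 6 libraries with 56674 rows, and the 6 single files held the same counts. The submitters' processing notes name bcl2fastq and GRCm39; the sources used here name no aligner, counter, annotation or strand setting. Of rows that shared a name (939), the one with most reads kept it. Genes were kept by filterByExpr (minimum count 10, minimum total 15), scaled by TMM and tested with edgeR 4.0.16 (quasi-likelihood, R 4.3.3) over all 17871 genes; the SE is the estimate divided by the square root of F. Alternatives used DESeq2 1.42.0, limma 3.58.1, other scalings and filters, a replicate block and left-out libraries. The edgeR step was tested on simulated data. Genes named beyond the 10 were fixed anchors and up to 3 per list of smallest p at 1 CPM or more. The members and lists were chosen with earlier results of these data known. No pair of libraries agreed within sampling noise (chi-square per degree of freedom at least 201). Transcript lengths and overlaps came from GENCODE M21 on GRCm38, which is not the authors' build, so no gene coordinates are given; promoter windows carry those of GRCm38.p6.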

Additional observations from a re-analysis of the deposited data

How the results depend on the processing

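Over 29 genes and 17 alternatives each, no member was called in any of them, and 20 genes never changed the sign of their estimate. Over all genes, DESeq2 called 512 (361 higher and 151 lower in PB-MP), 2 of them among the pathway lists (Abhd6 and Mlxipl), edgeR called 0 to 1 with a library left out (1 without control replicate 1) and 2 with PB-MP replicate 3 and control replicate 2 both left out. Without those 2 libraries the log2 fold changes of Agpat2, Dgat2, Mogat1, Pnpla2 and Mgll were -0.42, -0.40, -1.75, -0.58 and -1.02, all at an unadjusted p below 0.05 and with adjusted p of 0.128 to 0.196. In that fit 23.8% of all 18115 tested genes were past the same unadjusted limit. Control replicate 2 was the lowest control for 7 of the 9, so leaving it out tends to raise their control means and to part the groups. No other pair of libraries was left out, so these values do not show how the result depends on the pair. The number of all genes at an unadjusted p below 0.05 was 2161, and it was 1410 with at least 1 CPM in 3 libraries, 4185 with quality weights, 4316 without both libraries, and 1472 to 3338 with 1 library left out.

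Estimates that changed sign were mostly near 0. With library size only they were 0.029 for Agpat2, 0.057 for Lpin1, 0.14 for Lpin2, 0.13 for Dgat1, 0.10 for Agpat3, 0.19 for Lipe and 0.19 for Srebf1. Lpin1 was at 0.022 in limma-voom and 0.052 with the replicate block. Lipe was at 0.0013 with at least 1 CPM in 3 libraries. With quality weights Abhd5 was at -0.039 and Srebf1 at 0.26, and with the same 2 libraries left out they were at -0.088 and 0.27. With 1 library left out the estimates ran from -0.60 to 0.60 for Lpin1, -0.40 to 0.41 for Lpin2, -0.25 to 0.042 for Dgat1, -0.23 to 0.13 for Lipe, -0.047 to 0.063 for Abhd5, -0.10 to 0.91 for G0s2 and -0.27 to 0.28 for Srebf1, and the difference in log2 ratio of Lpin1 to Lpin2 from -0.64 to 1.39. The cause was not tested. In the order of levels, Gpam took place 6 and Dgat1 place 7 with the median transcript length. A pseudocount of 0 reads gave no value for Pnpla3 to Pnpla2.

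Whether the replicate numbers of the labels pair the libraries was not settled. Deviations from the group means of same-numbered libraries correlated at -0.09, 0.09 and 0.08, and those of differently numbered libraries at -0.14 to 0.08. With 3 libraries per group these values cannot decide it. The share of 18S ribosomal RNA was highest in replicate 2 of both groups. With the replicate block edgeR called 0 genes, and 1836 genes (10.3%) were at an unadjusted p below 0.05. In that edgeR fit Mogat1 and Mgll had unadjusted p of 0.0054 and 0.0078 (adjusted p of 0.414 and 0.416).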
